A study of Mus musculus with 24 samples.

Results

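Expression in the terminal ileum of germ-free mice was compared with that of conventional mice after both had received short-chain β2→1-fructan, in 4 mice of each kind. Short-chain β2→1-fructan is a mixture of short fructose chains, a fermentable fibre that mammalian enzymes do not digest. All mice were C57BL/6OlaHsd males of 8 weeks with no engineered allele, and each received 10 mg of the fructan per day by gavage for 5 days while on a purified low-fat diet. The 8 arrays are part of a series of 24, which holds the same 2 kinds of mice on water and after long-chain β2→1-fructan, with 4 mice in each of 6 groups. Every gene with a probe set of its own was included, which gave 18820 genes from 21218 probe sets with 1 gene symbol among 35556 in all. Values are log2 intensities after robust multiarray averaging (RMA), so a difference of 1 is a doubling of the signal. Conventional mice were bought from a supplier, germ-free mice were bred in the university's own colony, and the fructan for germ-free mice was passed through a sterile filter. Origin, housing and colonization therefore cannot be told apart. The ileum was taken as whole tissue, in which fewer cells of a type and less RNA per cell cannot be told apart either.

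The ileum carries a dense microbiota at the end of the small intestine. Microbial products and the cytokines of lymphocytes that respond to microbes are known to drive antimicrobial proteins, oxidases, surface fucose and antigen presentation in its epithelium, and the mucosal lymphoid compartment of germ-free animals is known to stay small. Enterocytes of the same tissue absorb fat, sugar and bile acids, processes that microbes are known to influence as well.

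Markers of the labelled tissue were present in both groups. Fabp6, the ileal bile acid binding protein, had values of 12.61, 12.57, 12.51 and 12.48 in germ-free and 12.44, 12.52, 12.59 and 12.44 in conventional mice. Vil1, which encodes the brush border protein villin, lay between 11.54 and 11.71 in all 8 mice, and Slc10a2, the ileal bile acid transporter, between 10.81 and 11.22. The groups overlapped for all 3 genes, and none of their differences passed the test. Of all 18820 genes 15988 were not called, and of 19 epithelial and regional markers 16 were not, a similar share. The 3 others were Fgf15, an ileal hormone, at a log2 difference of -4.94, the intestinal transcription factor Cdx2 at -0.22, and Fabp1, a marker of the proximal intestine, at 2.60. Cdx2 was not called without germ-free mouse 1, 2 or 4 (-0.18) or conventional mouse 3 or 4 (-0.17). Over all 35556 probe sets arrays of the same group correlated at r = 0.985 to 0.990 and arrays of different groups at 0.977 to 0.985.

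A total of 2832 of 18820 genes differed between germ-free and conventional mice at an adjusted p under 0.05. In germ-free mice 1664 genes, 8.84%, were higher and 1168, 6.21%, were lower. After an additional cyclic loess normalization, which shifts every array towards the others, the split turned to 1258 higher and 1458 lower. With the study's pair of thresholds, p under 0.01 before adjustment together with a change of more than 1.3-fold, 808 genes (4.29%) were higher and 841 (4.47%) lower. The median log2 difference of all genes was 0.03. Most differences were small, with a median of 0.37 among the higher and -0.45 among the lower genes, but 118 genes were higher and 110 lower by more than 1 log2 unit. Where all 4 mice of a kind lie above the other 4 in a single gene, the exact two-sided permutation test over all 35 divisions of the 8 mice gives p = 0.029, the smallest it can give. Gm5617, just inside the threshold, and Traf5, just outside it, both had an adjusted p that rounds to 0.050 and log2 differences of -0.34 and -0.34, and the call of Gm5617 was lost without any single mouse other than germ-free mouse 1. Gene lists are described below by how many of their measured members were called in each direction, and counts of 1 or 2 genes in a list often changed when single mice were left out.

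**Figure D1:**
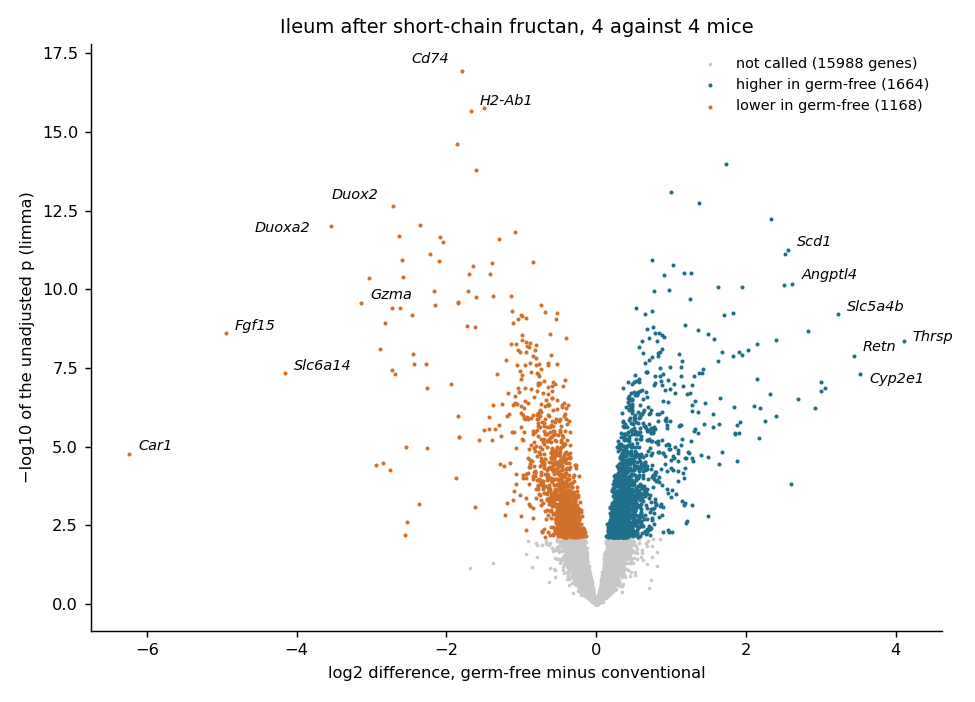
Log2 difference of each of 18820 genes between 4 germ-free and 4 conventional mice after short-chain β2→1-fructan (x axis) against −log10 of the unadjusted limma p (y axis). Blue points are the 1664 genes higher in germ-free mice, orange points the 1168 lower ones, and the named genes include Car1 on the far left at -6.23 and Thrsp on the far right at 4.10.

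Genes of antigen presentation on major histocompatibility complex (MHC) class II molecules were among those with the smallest p. Of 13 measured genes 7 were lower in germ-free mice and none was higher, and the median log2 difference was -0.49 against 0.03 over all genes. The promoters of 2 class II chains are shown with CCAAT in capitals on either strand, the box at the end of the module from which these genes are known to be read. They are the 150 bases before the start site in GRCm38.p6 as given by RefSeq, for H2-Aa at chr17:34287824-34287973 on the minus strand and for H2-Eb1 at chr17:34305717-34305866 on the plus strand, each written in the direction of the gene.
H2-Aa: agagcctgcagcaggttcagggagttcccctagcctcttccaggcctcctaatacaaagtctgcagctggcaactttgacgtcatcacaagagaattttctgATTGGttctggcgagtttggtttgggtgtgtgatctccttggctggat
H2-Eb1: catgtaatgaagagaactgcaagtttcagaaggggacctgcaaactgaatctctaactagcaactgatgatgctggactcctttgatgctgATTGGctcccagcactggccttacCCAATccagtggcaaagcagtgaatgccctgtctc
CCAAT lay with its first base 48 bases before the start in H2-Aa and 59 and 35 bases before it in H2-Eb1. Of the 7 lower genes 4 had a promoter in the table, and all 4 (H2-Aa, H2-DMa, H2-Eb1 and H2-Eb2) held CCAAT within 250 bases before to 50 after the start. Among all 14749 measured genes with a promoter 41.9% did, so a match is common.

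H2-Aa, the alpha chain of the A molecule, had values of 9.08, 8.97, 9.24 and 9.09 in the germ-free mice and of 10.98, 10.35, 10.83 and 10.65 in the conventional mice. Its log2 difference was -1.61 ± 0.11 (SE, n = 4 and 4), 3.05-fold lower in germ-free mice with an adjusted p of 4.9e-11. The partner chain H2-Ab1 was lower by 3.19-fold and H2-Eb1, the beta chain of the E molecule, by 2.84-fold. Cd74, the invariant chain that guides class II molecules to the endosome, had values of 9.69, 9.55, 9.86 and 9.50 in germ-free and 11.59, 11.23, 11.56 and 11.40 in conventional mice, with the smallest p of all genes (log2 difference -1.79 ± 0.09, adjusted p = 2.1e-13). H2-DMa, a subunit of the peptide exchange factor, fell by 3.62-fold. For these 5 genes each germ-free mouse lay below each conventional mouse by a distance larger than the spread within either group. Ciita, the transactivator that switches class II genes on, was at 5.46, 5.11, 5.29 and 5.52 in germ-free and 7.27, 6.29, 6.60 and 6.53 in conventional mice and fell by 2.51-fold (adjusted p = 5.8e-06). The general factors that bind class II promoters were not called, with log2 differences of -0.14 for Rfx5 and 0.14 for Rfxap. H2-Eb2, a chain of low signal, was called at -0.49 with all mice, but not without germ-free mouse 2 (-0.44), conventional mouse 1 (-0.37) or conventional mouse 3 (-0.44). The probe set shared by H2-DMb1 and H2-DMb2 was at 5.69, 5.34, 5.76 and 5.64 in germ-free and 7.82, 7.14, 7.35 and 7.51 in conventional mice.

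The machinery that prepares peptides for MHC class I fell as a group. Of 15 measured genes 14 were lower in germ-free mice, with a median of -0.60. All 5 immunoproteasome genes were among them. Psmb8, a catalytic subunit, had values of 6.27, 6.25, 6.91 and 6.27 in germ-free and 8.95, 8.12, 8.18 and 8.62 in conventional mice, 4.12-fold lower in the former (adjusted p = 3.3e-09). The third germ-free mouse had the highest value of its group but stayed below all conventional mice. Psmb9 fell by 2.24-fold and Psmb10 by 1.72-fold, and Psme1, a subunit of the proteasome activator, by 1.61-fold. Tap1, a subunit of the peptide transporter, was lower by 2.60-fold. Psmb9 and Tap1 are divergent neighbours whose start sites lie 226 bases apart in the RefSeq table. B2m, the light chain of class I, was lower by 1.21-fold only, at 11.73, 11.86, 11.96 and 11.68 against 12.13, 11.97, 12.16 and 12.08.

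Interferon-stimulated genes were lower as broadly. Of 33 measured genes 28 were lower and none was higher, with a median of -0.70, and they comprised all 13 genes listed as targets of interferon gamma and 15 of 20 listed as targets of type I and type III interferon. Promoters of 2 members are shown with copies of GAAA that have 2 bases of any kind between them, the core to which interferon regulatory factors and the interferon-activated complex are known to bind, in capitals on either strand (TTTC on the other). They are again the 150 bases before the start in GRCm38.p6, for Ifit1 at chr19:34640739-34640888 on the plus strand and for Isg15 at chr4:156200819-156200968 on the minus strand.
Ifit1: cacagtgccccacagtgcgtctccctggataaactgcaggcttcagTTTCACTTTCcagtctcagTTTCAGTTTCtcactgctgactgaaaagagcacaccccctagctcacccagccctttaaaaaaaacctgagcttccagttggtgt
Isg15: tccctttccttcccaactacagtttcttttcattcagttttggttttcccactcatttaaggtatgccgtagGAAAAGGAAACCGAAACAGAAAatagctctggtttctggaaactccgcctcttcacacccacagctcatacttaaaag
The first bases of the matches lay 104 and 85 bases before the start in Ifit1, and 78, 72 and 66 bases before it in Isg15, where the 3 matches overlap each other. Of the 28 lower genes 22 had a promoter in the table, and 14 held the motif within 250 bases before to 50 after the start. Among the 14749 measured genes with a promoter 3.91% did. The list was chosen as interferon-stimulated genes, and its members that were not lower were not examined. Whether the motif bears on the difference was not tested.

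Ifit1, an RNA-binding antiviral protein, had values of 5.22, 5.08, 5.71 and 4.76 in germ-free and 7.99, 6.76, 7.15 and 7.94 in conventional mice and was 4.82-fold lower in the former (adjusted p = 3.2e-06). Isg15, a ubiquitin-like modifier, was at 4.35, 4.30, 4.25 and 4.44 against 5.01, 4.56, 4.81 and 5.63, a log2 difference of -0.67 ± 0.16 (adjusted p = 0.0048). In conventional mice both genes were higher in mice 1 and 4 than in mice 2 and 3, and the germ-free values lay below all of them. Zbp1, a sensor of nucleic acids, fell by 2.62-fold. Among the regulators Irf1 fell by 2.08-fold and Irf8 by 2.0-fold, while for Irf1 the mean of all its probe sets gave a smaller log2 difference, -0.58 instead of -1.05. Cxcl10, a chemokine that attracts activated T cells, was at 4.25, 4.27, 4.32 and 4.18 in germ-free and 6.45, 5.93, 5.13 and 4.94 in conventional mice, 2.56-fold lower. Ifng itself, the gene of interferon gamma, had low values in both groups, 2.58 to 3.16, and did not pass the test (-0.19 ± 0.11, adjusted p = 0.25). The mean of the 33 genes per mouse lay between 5.42 and 5.75 in germ-free and between 5.98 and 6.61 in conventional mice. In the separate conventional mice on water it lay between 6.12 and 6.18.

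**Figure D2:**
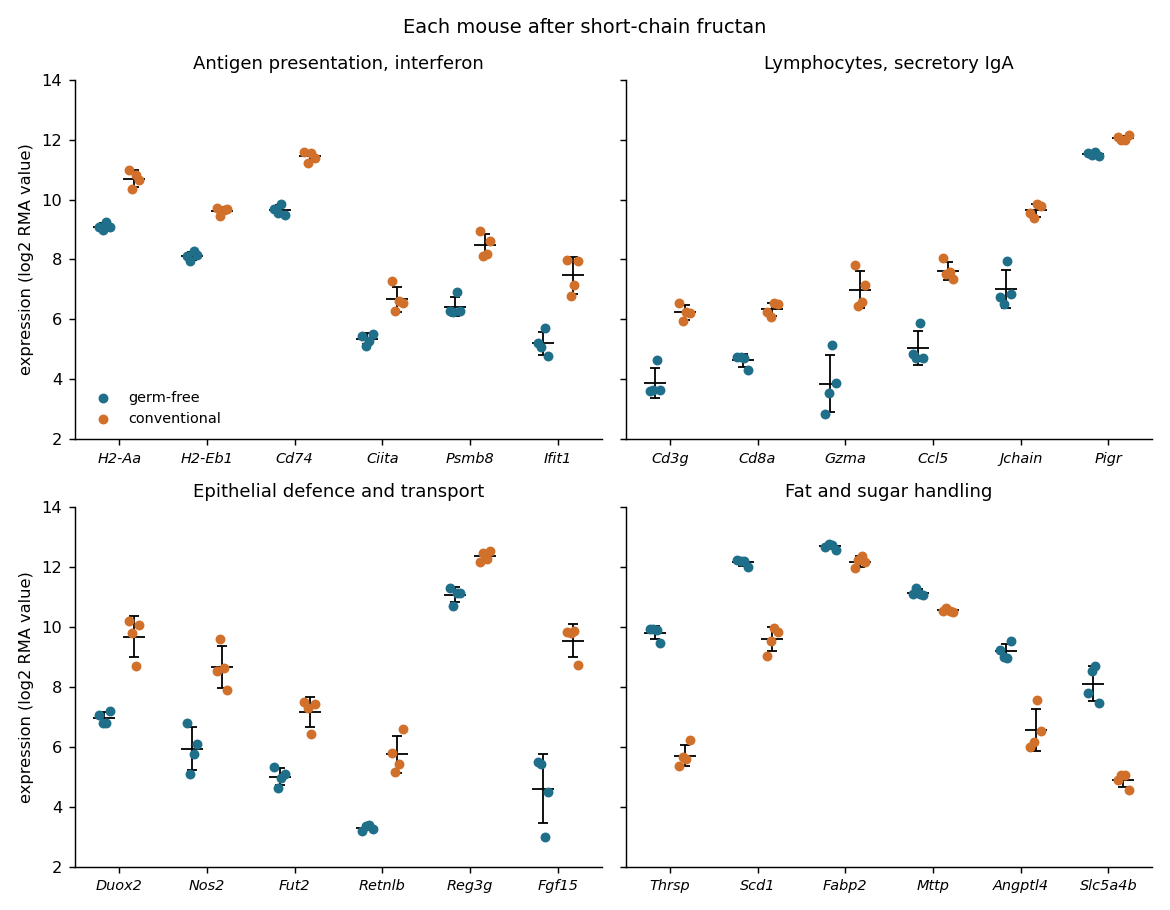
Log2 RMA value (y axis) of 24 genes (x axis) in each of the 8 mice after short-chain β2→1-fructan, germ-free in blue and conventional in orange; horizontal bars are the mean and error bars the SD of 4 mice. In each gene shown the 4 germ-free and the 4 conventional values are separate, for example H2-Aa up to 9.24 against 10.35 and above, and Slc5a4b from 7.45 against up to 5.07. The genes shown were chosen from those called, of which 1410 of the 1664 higher and 978 of the 1168 lower genes were separate. Over all 18820 genes 2258 were separate with germ-free mice higher and 1479 with germ-free mice lower.

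Genes of T cells and intraepithelial lymphocytes were lower in germ-free mice in 18 of 34 cases and higher in none, with a median of -0.47. All 34 log2 differences were below 0. Cd3g, a chain of the T cell receptor complex, was at 3.60, 3.64, 4.64 and 3.65 in germ-free and 6.53, 5.93, 6.26 and 6.22 in conventional mice, 5.11-fold lower (adjusted p = 1.5e-09), and Cd3e fell by 4.25-fold. The third germ-free mouse was the highest of its group for Cd3g, Cd3e, Ccl5 and Gzma, and still below every conventional mouse. The coreceptor Cd8a was at 4.74, 4.75, 4.72 and 4.30 against 6.23, 6.09, 6.53 and 6.50 and fell by 3.28-fold, whereas Cd4, the coreceptor of helper cells, overlapped between the groups (log2 difference -0.20 ± 0.13, adjusted p = 0.34). Itgae, the integrin chain that holds lymphocytes in the epithelium, fell by 2.17-fold. Gzma, a granzyme of cytotoxic cells, had values of 2.85, 3.55, 5.13 and 3.88 in germ-free and 7.81, 6.45, 6.58 and 7.13 in conventional mice and was 8.82-fold lower, and Gzmb was 3.83-fold lower. Most germ-free values of Gzma and Cd3g lay near the floor of the arrays, so their folds may be too small. Prf1, which encodes the pore-forming partner perforin, did not pass the test, at -0.22 ± 0.16. Ccl5, a chemokine stored by cytotoxic cells, fell by 6.02-fold.

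Antibody genes were the other lymphoid group with large differences. Of 14 genes of IgA plasma cells and IgA transport 9 were lower and none was higher, with a median of -0.65. Jchain, which joins IgA into dimers, was at 6.75, 6.53, 7.96 and 6.86 in germ-free and 9.54, 9.37, 9.85 and 9.78 in conventional mice, 6.12-fold lower (adjusted p = 1.4e-07). Among antibody genes outside that list the constant region genes Igha and Ighm fell by 7.17-fold and 8.20-fold, and the kappa and heavy chain segments Igkv8-30 and Ighv1-72 by 6.75-fold and 6.43-fold. Immunoglobulin segments are near copies of each other, so which segment gave the signal is uncertain. Pigr, the receptor that carries IgA across the epithelium, was high in all mice and fell from 12.05 ± 0.08 to 11.52 ± 0.06 (mean ± SD, n = 4). Tnfsf13b, a survival factor of plasma cells, fell by 1.95-fold, though its log2 difference was -0.55 instead of -0.96 over all its probe sets. Of 18 mature B cell markers 6 were lower, with a median of -0.21, and Ighm, given above, is among them. The defining genes Ms4a1 and Cr2 did not pass the test. Their values were near the floor of the arrays, 3.25 to 4.01 and 2.49 to 2.92.

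Myeloid genes differed in fewer cases. Of 34 markers of macrophages, dendritic cells and granulocytes 5 were lower. The macrophage scavenger receptor Cd163 and the lectin Cd209a were higher, at log2 differences of 0.62 and 0.58. Without conventional mouse 3 they were at 0.55 and 0.54 and not called, nor was Cd163 without germ-free mouse 4 or conventional mouse 4, or Cd209a without germ-free mouse 3. Csf1r, the receptor of the macrophage growth factor, fell by 1.40-fold and C1qb, a complement chain made by macrophages, by 1.46-fold. None of 5 neutrophil genes passed the test, but 15988 of all 18820 genes did not pass either, so 5 genes show little. Of 23 chemokines and chemokine receptors 7 were lower and 1 was higher, against 6.21% and 8.84% of all genes. All 8 were among the 18 ligands, whose median of -0.29 was close to the -0.28 of the 5 receptors. Cxcl16 fell by 1.63-fold and Ccl22 by 1.81-fold, while Ccl25, the epithelial chemokine that recruits lymphocytes to the small intestine, was higher by 1.17-fold. Over all its probe sets the log2 difference of Ccl25 was 0.45 instead of 0.23. Of 38 Toll-like, NOD-like, lectin and peptidoglycan receptors 9 were lower, but 4 when germ-free mouse 4 was left out, and 1 was higher, the lectin Clec2e with a log2 difference of 0.54. Tlr1, which senses bacterial lipopeptides, fell by 1.90-fold and Pglyrp1, a peptidoglycan recognition protein, by 1.66-fold.

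The epithelial oxidases and the inducible nitric oxide synthase were lower in germ-free mice by large factors. Of 10 genes in a list with the serum amyloid A family 6 were lower and none was higher, with a median of -0.94. Duox2, the oxidase that releases hydrogen peroxide at the epithelial surface, was at 7.06, 6.81, 6.80 and 7.22 in germ-free and 10.20, 9.79, 8.70 and 10.06 in conventional mice, 6.57-fold lower (adjusted p = 4.8e-10). Duoxa2, its maturation factor, was at 6.06, 5.86, 5.52 and 6.16 against 9.96, 9.76, 8.06 and 10.01 and fell by 11.7-fold. Both genes were lowest in conventional mouse 3 among conventional mice. They face away from each other on chromosome 2, with start sites 673 bases apart in the RefSeq table. Nos2, the inducible nitric oxide synthase, fell by 6.65-fold and Cyba, a membrane subunit of NADPH oxidases, by 2.13-fold. The probe set shared by Saa1 and Saa2, acute phase proteins of the ileal epithelium, had values of 2.31, 2.56, 3.05 and 2.84 in germ-free mice and 8.23, 8.41, 7.32 and 9.16 in conventional mice. The ratio of 48.1 between the groups, from a fit over all 35556 probe sets (adjusted p = 3.3e-10), can be read only as a lower bound of the difference, since the germ-free values lay at the floor of the arrays.

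Secreted antimicrobial proteins did not move in 1 direction. Of 16 lectins, resistin-like and related proteins 8 were lower and 2 were higher, Reg3a and Retnla, a resistin-like protein near the floor of the arrays with a log2 difference of 0.71. Reg3g, a lectin that kills Gram-positive bacteria, was at 11.31, 10.72, 11.14 and 11.15 in germ-free and 12.19, 12.49, 12.28 and 12.56 in conventional mice, 2.46-fold lower (adjusted p = 3.0e-09), and Reg3b was 1.86-fold lower. Reg3a, another member of the family, went the other way, at 8.53, 8.67, 9.07 and 8.52 against 6.07, 7.38, 7.10 and 6.96, 3.54-fold higher (adjusted p = 1.8e-07). Retnlb, a resistin-like protein of goblet cells, was at 3.21, 3.37, 3.40 and 3.25 in germ-free and 5.79, 5.17, 5.45 and 6.60 in conventional mice. It was 5.44-fold lower in germ-free mice, all of which had values near the floor of the arrays, so the fold is a lower bound. Pla2g2a, a phospholipase that attacks bacterial membranes, fell by 2.03-fold, and Lypd8, which binds flagella, by 1.33-fold.

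Among 27 glycosyltransferases and glycan sulfotransferases 7 were lower and 2 were higher, or 1 when single mice were left out. Fut2, which places fucose on epithelial glycans, was at 5.34, 4.64, 4.96 and 5.10 in germ-free and 7.49, 7.31, 6.42 and 7.45 in conventional mice, 4.47-fold lower (adjusted p = 5.1e-08), again with conventional mouse 3 lowest of its group. Gcnt1, which builds branched mucin cores, fell by 3.58-fold and B3gnt7, a chain-extending enzyme, by 1.65-fold. B3galt5, a galactosyltransferase that was outside the list, fell by 6.61-fold, from 5.98, 6.88, 6.12 and 5.79 in conventional mice to 3.06, 3.49, 3.54 and 3.77 in germ-free mice. The germ-free values lay near the floor of the arrays, so this fold may be too small. B4galnt1 was higher by 1.39-fold, or by a log2 difference of 0.30 instead of 0.48 over all its probe sets.

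In the secretory lineages the Paneth cell list had the largest share of lower genes, 8 of 12, with a median of -0.47. Mptx1, a pentraxin, fell by 2.97-fold and Mmp7, which activates defensins, by 1.56-fold, whereas Lyz1, the Paneth cell lysozyme, did not pass the test at -0.06 ± 0.04 (adjusted p = 0.41). Ang4, a microbicidal ribonuclease that is also made by goblet cells, fell by 1.78-fold. Alpha-defensins mostly share their probe sets, whose log2 differences ranged from -0.25 to -0.13 at means above 11.53. Of 16 goblet cell genes 4 were lower and 1 was higher, the peptide hormone gene Guca2a at 0.24 (not called without conventional mouse 1, at 0.17), with Muc4 and Spink4 lower by 1.92-fold and 1.70-fold and Muc2, the gel-forming mucin, at -0.13 ± 0.05 (adjusted p = 0.063). Of 25 enteroendocrine genes 3 were lower and none was higher, and Sst, which encodes somatostatin, fell by 1.61-fold. Over all genes 8.84% were higher and 6.21% lower, so the 3 lower enteroendocrine genes and the 1 higher goblet cell gene show little.

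Of 27 genes of interleukin-22 and interleukin-17 signalling, a pathway known to induce the epithelial genes above, 5 were lower and 1, the cytokine gene Il25, was higher at 0.40, with a median of -0.06. Il25 had values near the floor of the arrays and was not called without germ-free mouse 2, 3 or 4 or conventional mouse 2 (0.35) or 4. The 2 probe sets shared by Il22 and its near copy Iltifb had log2 differences of -0.04 and 0.00 (adjusted p = 0.97 and 1.0) near the floor of the arrays, against -1.03 and -1.04 on water (adjusted p = 0.11 and 0.10). Il23r, the receptor through which interleukin-23 drives these cytokines, was at 3.04, 3.17, 3.26 and 2.79 in germ-free and 3.87, 4.18, 3.92 and 4.14 in conventional mice, 1.95-fold lower at levels near the floor. Stat3, the transducer of the interleukin-22 signal, fell by 1.19-fold, and Il22ra1, the receptor chain on epithelial cells, did not pass the test at -0.05 ± 0.08. Il17a was at 2.75 to 3.25 in all 8 mice. The motif TTCNNNGAA is the core of STAT binding sites. It lay within 250 bases before to 50 after the start in 2 of the 5 lower genes, Nupr1 and Pigr. Among the measured genes with a promoter 9.06% held it, and list members that were not lower were not examined.

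Single genes of ileal transport and metabolism had the largest differences of all. Car1, a carbonic anhydrase typical of the large intestine, was at 4.99, 4.66, 4.60 and 6.20 in germ-free and 11.48, 11.90, 12.56 and 9.43 in conventional mice, 75.2-fold lower (log2 difference -6.23 ± 1.19, adjusted p = 5.4e-04). Its spread was wide in both groups, with germ-free mouse 4 and conventional mouse 4 nearest to each other. Fgf15, by which the ileum restrains bile acid synthesis in the liver, was at 5.51, 5.43, 3.0 and 4.51 against 9.83, 9.80, 9.86 and 8.73, 30.7-fold lower (adjusted p = 5.9e-07). The rest of the bile acid list did not follow it. Of 13 genes 2 were lower, Fgf15 and Slc51b, a subunit of the basolateral bile acid exporter, which fell by 1.33-fold. The exporters Abcc2 and Abcc3 were higher at 0.72 and 0.32 with all mice, and neither was called without germ-free mouse 2 (0.48 and 0.32), germ-free mouse 3, conventional mouse 1 or conventional mouse 2. Abcc3 was not called without germ-free mouse 1 or conventional mouse 4 either. With all mice both calls were lost without the trend in the prior and under cyclic loess, and that of Abcc2 also in the 8 arrays alone. Nr1h4, which encodes the bile acid receptor FXR, did not pass the test at 0.04 ± 0.10. Nr0b2, another target of FXR, was near the floor of the arrays at -0.36 ± 0.19 (adjusted p = 0.24). Slc6a14, an amino acid transporter of broad range, was at 7.39, 4.66, 5.82 and 7.35 in germ-free and 10.56, 10.16, 10.46 and 10.65 in conventional mice, 17.8-fold lower, and was the only one of 18 amino acid and peptide transporters that was lower. Of these 18 genes 5 were higher, or 3 without conventional mouse 3, among them Slc38a2 by 1.39-fold. Tat, a tyrosine aminotransferase, fell by 7.39-fold. The 3 probe sets shared by members of the Gsdmc family, which encode gasdermins, fell by 6.78 to 8.79-fold.

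Genes of fat handling were higher in germ-free mice. Of 24 genes of fatty acid oxidation and targets of PPARα, the nuclear receptor that senses fatty acids, 19 were higher and 1, the coactivator Ppargc1a, was lower at -0.51, with a median of 0.52. Ppargc1a was not called without germ-free mouse 2 or 4 or conventional mouse 1 (-0.38) or 3, or over the mean of its probe sets (-0.39). Angptl4, a secreted inhibitor of lipoprotein lipase, was at 9.26, 9.01, 8.97 and 9.53 in germ-free and 6.01, 6.16, 7.58 and 6.54 in conventional mice, 6.13-fold higher (adjusted p = 3.7e-08). Ppara itself was at 8.12, 8.00, 8.05 and 7.55 against 7.06, 7.12, 7.36 and 7.08, 1.71-fold higher. Of the enzymes Ehhadh rose by 1.94-fold, Acaa2 by 1.83-fold and Acadm by 1.43-fold, and 8 of 10 mitochondrial and 8 of 9 peroxisomal genes were higher. Cpt1a, which admits fatty acids to mitochondria, did not pass the test at 0.17 ± 0.09.

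Of 25 genes of lipid absorption and chylomicron assembly 14 were higher and none was lower. Fabp2, the intestinal fatty acid binding protein, was at 12.67, 12.78, 12.74 and 12.59 in germ-free and 11.97, 12.26, 12.38 and 12.17 in conventional mice, 1.42-fold higher (adjusted p = 1.7e-05). Mttp, which loads lipid onto nascent chylomicrons, rose by 1.5-fold and Apoc3, an apolipoprotein on them, by 1.85-fold. Fabp1, a fatty acid binding protein of the proximal intestine, was at 6.71, 9.83, 8.96 and 7.39 against 4.47, 6.77, 5.92 and 5.33 and was 6.08-fold higher (adjusted p = 0.0029), but the groups overlapped and the exact two-sided permutation p was 0.057.

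Of 10 genes of fatty acid synthesis 8 were higher, against 1 of 16 of sterol synthesis. Thrsp, a regulator of lipogenesis, was at 9.95, 9.93, 9.90 and 9.49 in germ-free and 5.38, 5.66, 5.59 and 6.22 in conventional mice, 17.2-fold higher (adjusted p = 8.9e-07), the largest increase of all genes. Fasn, the fatty acid synthase, was at 10.31, 10.15, 10.36 and 10.03 against 7.79, 8.19, 8.04 and 8.24, 4.44-fold higher. Scd1, a fatty acid desaturase, rose by 5.91-fold, Me1, which supplies NADPH for it, by 7.12-fold and Acly, which supplies acetyl-CoA, by 2.49-fold. Hmgcs1, an early enzyme of sterol synthesis, had a log2 difference of 0.18 ± 0.09 and did not pass the test.

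Adipocyte markers moved with these genes. Of 11 markers 7 were higher in germ-free mice and all 11 log2 differences were above 0, with a median of 1.87. Adipoq, the fat hormone adiponectin, was at 7.98, 8.06, 8.02 and 7.85 in germ-free and 4.30, 4.97, 5.60 and 5.35 in conventional mice, 7.58-fold higher (adjusted p = 3.9e-05). Retn, which encodes resistin, was 10.8-fold higher, Fabp4, the fatty acid binding protein of adipocytes, 5.27-fold and Car3, a carbonic anhydrase of fat and muscle, 7.96-fold. Upk3b, a marker of the mesothelium that covers gut and mesentery, was at 6.16, 6.83, 7.33 and 6.49 against 3.88, 4.5, 3.97 and 4.47, 5.66-fold higher. The mean of 6 adipocyte markers per mouse (Adipoq, Retn, Fabp4, Cidec, Plin1 and Car3) lay between 8.92 and 9.22 in germ-free and between 6.17 and 6.87 in conventional mice, without overlap. On water the ranges were 7.32 to 9.43 and 7.15 to 7.31.

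With this mean as a covariate over all 24 arrays, an alternative added after the data were seen, 326 genes were called, 130 higher and 196 lower. The median of the PPARα and oxidation list was then 0.50 with 3 of 24 genes called higher, that of lipid absorption 0.21 with 4 of 25, and that of sterol and fatty acid synthesis 0.07 instead of 0.27 with 1 of 26. Fabp2 had a log2 difference of 0.58 (adjusted p = 0.013) in that model and Angptl4 of 2.51 (adjusted p = 0.0015), whereas Thrsp had 1.0 (adjusted p = 0.26) and Fasn 0.27 (adjusted p = 0.72). Cd36, a fatty acid transporter that adipocytes share with enterocytes, went from 1.84 to -0.09. The medians of the MHC class II, interferon and T cell lists were -0.40, -0.69 and -0.41, with 6 of 13, 3 of 33 and 9 of 34 genes called lower. In the class I list the median was -0.51 with 4 of 15 genes called lower, and in the Paneth cell list -0.20 with 0 of 12. Since the covariate separates the 2 groups, its part and that of colonization cannot be fully told apart. For the same reason the model is less precise, so a lost call need not mean a smaller difference. The interferon list had 28 genes called lower at a median of -0.70 without the covariate.

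**Figure D3:**
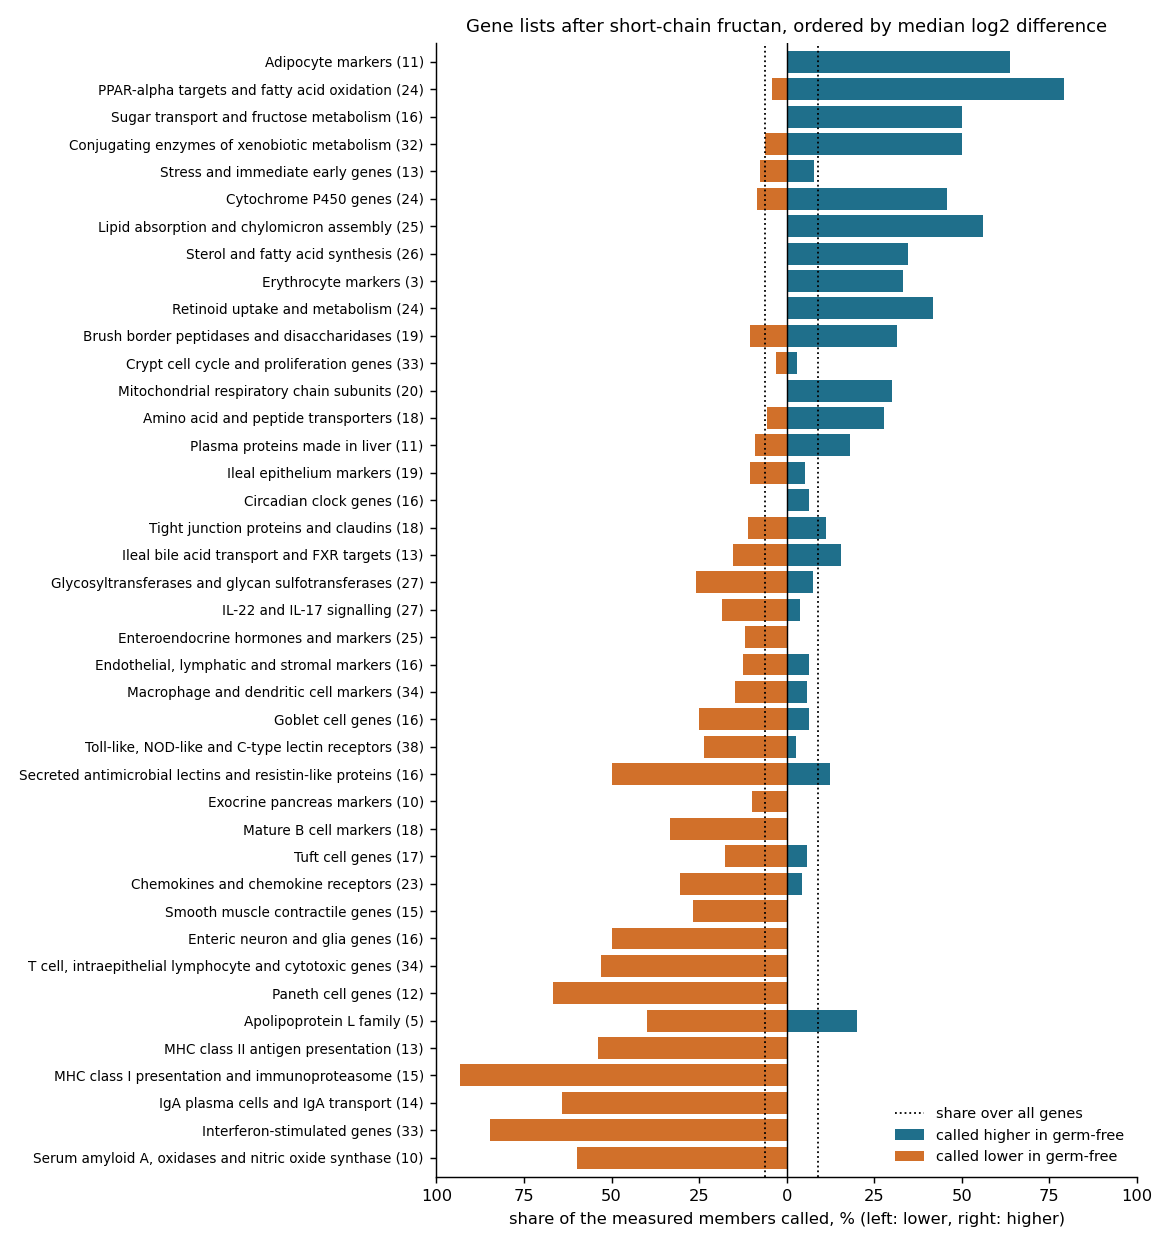
Share of the measured members of each of 41 gene lists (y axis, number of members in parentheses) that were called higher (blue, to the right) or lower (orange, to the left) in germ-free mice after short-chain β2→1-fructan, in percent (x axis), ordered by the median log2 difference; dotted lines are the shares over all genes, 8.84% and 6.21%. The longest bar to the left is that of MHC class I and immunoproteasome with 14 of 15 lower, and the longest to the right that of PPARα targets and fatty acid oxidation with 19 of 24 higher.

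Of 16 genes of sugar transport and fructose metabolism 8 were higher and none was lower. Slc5a4b, a member of the sodium glucose cotransporter family, was at 7.79, 8.53, 8.70 and 7.45 in germ-free and 4.90, 5.07, 5.07 and 4.55 in conventional mice, 9.35-fold higher (adjusted p = 1.9e-07). Slc5a4a, its neighbour in the family, rose by 2.23-fold. Khk and Tkfc, which phosphorylate fructose and glyceraldehyde on the path of fructose breakdown, rose by 1.42-fold and 1.79-fold. Slc5a1, the main glucose transporter of the brush border, and Slc2a5, the fructose transporter, did not pass the test at 0.04 ± 0.07 and 0.23 ± 0.18. Of 19 brush border hydrolases 6 were higher and 2 were lower. Mme, the peptidase neprilysin, rose by 2.58-fold, Treh, which splits trehalose, by 2.22-fold and Sis, the sucrase-isomaltase, by 1.36-fold. The lower genes were Ace, the angiotensin-converting enzyme, at a log2 difference of -0.43, and the phosphatase Alpl at -0.47. With 1 mouse left out Ace stayed called only without germ-free mouse 3 or conventional mouse 2, and was at -0.37 without conventional mouse 1, while Alpl stayed called only without germ-free mouse 1 or conventional mouse 4, and was at -0.36 without conventional mouse 1.

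Genes that metabolise foreign compounds and retinoids were higher as well. Of 24 cytochrome P450 genes 11 were higher, and of 32 conjugating enzymes and transporters 16 were higher and 2 were lower. The P450 genes Cyp3a25 and Cyp27a1 were lower with all mice, at -1.0 and -0.38. Neither was called without germ-free mouse 4 (-0.82 and -0.34) or conventional mouse 3, nor Cyp3a25 without germ-free mouse 1 or Cyp27a1 without germ-free mouse 2. Cyp2e1 was at 8.57, 8.85, 8.84 and 8.37 in germ-free and 5.05, 4.87, 5.49 and 5.12 in conventional mice, 11.5-fold higher. It is also made by adipocytes, and its log2 difference was 0.27 (adjusted p = 0.76) with the adipocyte covariate. Cyp2j6 rose by 2.40-fold and was at 1.38 (adjusted p = 2.6e-04) in that model. The covariate separates the 2 groups, and from which cells the signal of either gene came was not tested. Ces1f, a carboxylesterase, rose by 3.26-fold, while Ces2a, another carboxylesterase, was at 7.04, 8.02, 7.54 and 7.12 against 8.77, 8.72, 9.27 and 8.66, 2.69-fold lower. The probe sets shared by Gsta1 and Gsta2, glutathione transferases, rose by 3.95 to 4.29-fold. Cyp1a1, the classical target of the aryl hydrocarbon receptor, was near the floor of the arrays, at 2.48 to 2.86, and did not pass the test. Of 24 retinoid genes 10 were higher and none was lower. Rdh7, a retinol dehydrogenase, was at 8.25, 8.16, 8.43 and 8.18 in germ-free and 5.65, 6.80, 6.66 and 5.31 in conventional mice, 4.43-fold higher (adjusted p = 1.0e-06), Aldh1a1, which makes retinoic acid, rose by 2.27-fold, and Lrat, which esterifies retinol, by 2.20-fold.

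Genes of muscle and nerve were lower to a smaller degree. Of 16 genes of enteric neurons and glia 8 were lower, with a median of -0.34, and of 15 smooth muscle genes 4 were lower, with a median of -0.30. Vip, a neuropeptide of enteric neurons, was at 6.11, 5.95, 6.24 and 6.23 in germ-free and 6.75, 6.93, 7.06 and 6.79 in conventional mice, 1.68-fold lower, and Myh11, the smooth muscle myosin, fell by 1.32-fold. The 4 probe sets shared by the hemoglobin genes were higher by 4.04 to 4.23-fold in germ-free mice, with germ-free mouse 1 the highest of its group in each. How much blood, muscle or fat each piece of tissue held was not tested.

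Proliferation and clock genes were called in few cases, while over all genes 8.84% were higher and 6.21% lower. The clock and stress counts below were near these shares. Of 33 cell cycle and crypt genes 1 was higher and 1 was lower. They were the replication clamp Pcna, higher by 1.35-fold, and the stem cell receptor Lgr5, lower by 1.36-fold. Of the 33 log2 differences 26 were above 0, as were 10661 of all 18820, and more of the 33 genes passed in the other mice. On water 7 of the 33 were higher and 3 lower, and after long-chain β2→1-fructan 12 and 3. Of 16 clock genes 1 was higher, Clock itself by 1.22-fold. Of 20 subunits of the respiratory chain 6 were higher, among them Ndufa4 by 1.43-fold. Of 13 stress and immediate early genes 1 was higher, the heat shock protein Hsph1 by 2.27-fold with overlapping groups, and 1 was lower, the transcription factor subunit Jun at -0.40. Without germ-free mouse 4 Jun was at -0.31 and not called. The 3 probe sets shared by Hspa1a and Hspa1b, which encode inducible heat shock proteins, were higher as well, with log2 differences of 0.81, 1.76 and 1.88. These calls depended on single mice. None of the 3 sets was called without germ-free mouse 2 (0.73, 1.41 and 1.5) or germ-free mouse 4, the set at 1.76 and the set at 1.88 were not called without conventional mouse 1, 2 or 3 either, nor the set at 1.76 without germ-free mouse 3. Of 5 apolipoprotein L genes 2 were lower and 1, Apol6, was higher at a log2 difference of 0.89. With 1 mouse left out it stayed called only without germ-free mouse 4 or conventional mouse 3, and was at 0.74 without conventional mouse 4. Of the lower genes Apol10a, a family member with unclear function, fell by 3.61-fold. Further members share probe sets. Those of the Apol7 genes were lower at -1.40 and -1.29, and that of Apol10b and Apol11b at -0.68. The latter was not called without germ-free mouse 2 (-0.61). Those of Apol9a and Apol9b were at 0.10 and 0.30 and not called. Of 10 exocrine pancreas genes 1 was lower, Clps, the colipase, by 1.74-fold, and 3 were without conventional mouse 3.

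To see whether the comparison differed from that without short-chain β2→1-fructan, the same contrast was taken in the separate mice on water and after long-chain β2→1-fructan. On water 1054 genes were higher in germ-free mice (5.60%) and 1493 lower (7.93%), and after long-chain β2→1-fructan 1369 were higher (7.27%) and 1614 lower (8.58%). Of the 1168 genes lower after short-chain β2→1-fructan 836 were also lower on water, 71.6% of the former and 56.0% of the latter, and 844 were also lower after long-chain β2→1-fructan, 72.3% and 52.3%. Of the 1664 higher genes 725 were also higher on water, 43.6% and 68.8%, and 773 after long-chain β2→1-fructan, 46.5% and 56.5%. The sign was the same on water in 98.8% of the lower and 96.2% of the higher genes. In all 3 comparisons 731 genes were lower and 532 were higher, and no gene was called in opposite directions. Across the 18820 genes, which are not independent replicates and share array and probe effects, the log2 differences correlated at r = 0.80 with those on water and at r = 0.78 with those after long-chain β2→1-fructan.

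**Figure D4:**
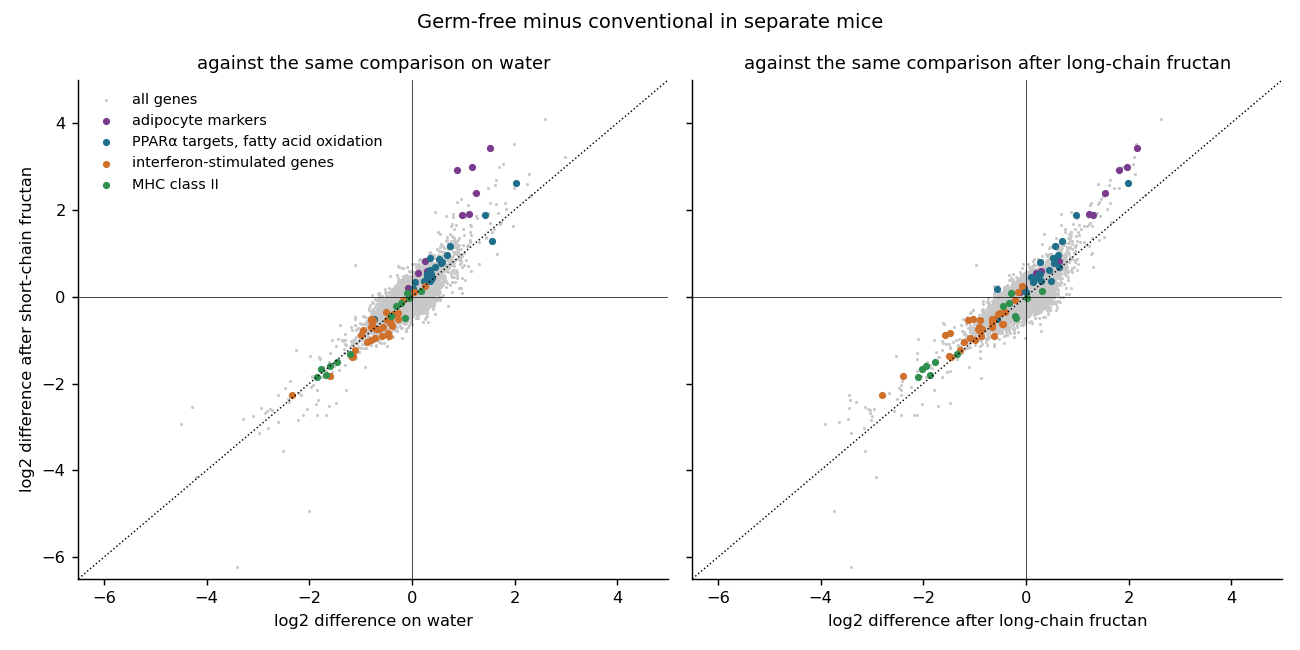
Log2 difference between germ-free and conventional mice after short-chain β2→1-fructan (y axis) against the same difference in separate mice on water (left, x axis) and after long-chain β2→1-fructan (right, x axis), for 18820 genes with 4 lists in colour; the dotted line marks equal differences. Most interferon-stimulated and MHC class II genes lie near the line below 0, and most adipocyte markers lie above the line at 1.87 (median) against 0.89 on water.

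The difference between the comparisons was then tested gene by gene as an interaction. No gene passed an adjusted p under 0.05 in limma, either against water (smallest adjusted p = 0.90) or against long-chain β2→1-fructan (smallest adjusted p = 0.44). At an unadjusted p under 0.05 there were 1025 genes (5.45%) against water and 1343 (7.14%) against long-chain β2→1-fructan, and at the study's thresholds 133 (0.707%) and 200 (1.06%). With conventional mouse 3 of the short-chain group left out, 2 genes passed against water, Duox2 with an interaction of -1.37 ± 0.19 (adjusted p = 0.0020) and Duoxa2 with -1.51 ± 0.26 (adjusted p = 0.039). With all mice they were at -1.04 and -1.04. The smallest p against water was that of Cndp1, a dipeptidase, with a log2 difference of 0.68 against 0.08 on water (interaction 0.60 ± 0.13). It was followed by Hp, the hemoglobin-binding protein haptoglobin, which adipose tissue also makes, with 1.95 and 0.44 (interaction 1.5 ± 0.34, adjusted p = 0.90). Against long-chain β2→1-fructan Pmepa1, a target of TGF-β, led with -0.84 and -0.30 (interaction -0.54 ± 0.11).

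The leading genes are given side by side for the 3 comparisons. H2-Aa differed by -1.61 in these mice, -1.60 on water and -1.94 after long-chain β2→1-fructan, and Cd3g by -2.35, -2.41 and -2.52. Fut2 differed by -2.16, -1.28 and -1.79, and its interaction with water was -0.88 ± 0.30 (unadjusted p = 0.0069, adjusted p = 0.90). Retnlb differed by -2.44, -1.48 and -1.48 (interaction with water -0.96 ± 0.42, adjusted p = 0.90), and Duox2 by -2.72, -1.68 and -2.13 (interaction with water -1.04 ± 0.28, adjusted p = 0.90). In Fgf15 the differences were -4.94, -2.01 and -3.74, and in Car1 -6.23, -3.40 and -3.42, where the difference on water did not pass the test (adjusted p = 0.056) and that after long-chain β2→1-fructan passed it narrowly (adjusted p = 0.0499). Fut2, Retnlb, Duox2, Fgf15 and Car1 had their largest difference after short-chain β2→1-fructan, but they come from the genes called there, of which 1758 of 2832 (62.1%) differed by more than in both other comparisons, against 34.4% of all genes. None of the 5 passed the interaction test with all mice.

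**Figure D5:**
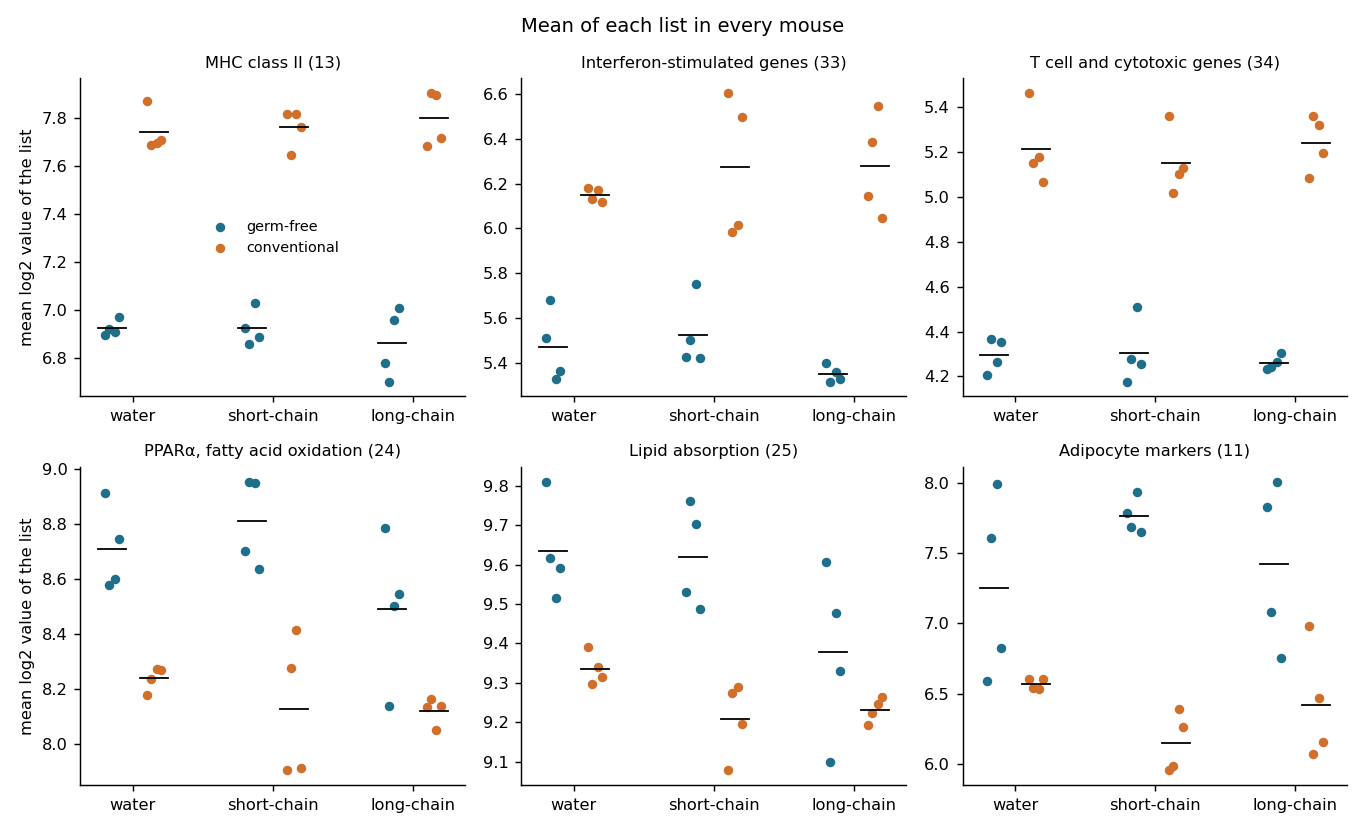
Mean log2 value of the members of 6 lists (y axis, number of members in parentheses) in each of the 24 mice, by treatment (x axis), germ-free in blue and conventional in orange; horizontal bars are group means of 4 mice. In the short-chain group the MHC class II mean lay between 6.86 and 7.03 in germ-free and 7.65 and 7.82 in conventional mice, and the adipocyte mean between 7.65 and 7.94 against 5.95 and 6.39.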

How the data were processed

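Ileal RNA from 24 mice, 4 in each of 6 groups, was hybridised singly to arrays of the type Affymetrix Mouse Gene 1.1 ST. The authors deposited log2 intensities after robust multiarray averaging (RMA), which corrects background, sets all arrays to 1 distribution and summarises probes. RMA compresses differences near the floor. Their methods name a remapped probe annotation, while the table carries the maker's probe set numbers, so genes were named through the platform annotation: 21218 of 35556 probe sets had 1 symbol, 1881 several and 12457 none. For 1386 genes with several sets the one with the highest mean was used, which left 18820 genes. Probe sets with several symbols were fitted apart and, like list members outside the rule below, named partly after their values were seen.

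Limma 3.58.1 in R 4.3.3 fitted 6 group means over the 24 arrays with an intensity trend in the prior variance, and p was adjusted after Benjamini and Hochberg over all genes; a gene was called at an adjusted p under 0.05. All p and SE come from this model unless an exact permutation test is named. The p-values rest on the spread between mice, which share an origin and colony within a group. Of the genes called, the 15 with the highest and the 15 with the lowest difference were to be named, with up to 5 members per direction of each of 41 gene lists, of which a choice is described. Members and lists were chosen with earlier results of these data known. Promoters came from RefSeq (GRCm38.p6). Arrays carry no depth, and their number limits the precision. Alternatives were other prior variances, the 8 arrays alone, cyclic loess, array weights, a filter on dim genes, the mean of probe sets, the replicate number as a block, each mouse left out and an adipocyte covariate. The fit was tested on simulated data.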

Additional observations from a re-analysis of the deposited data

Results flagged for a closer look

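Among 398 groups of 4 mice, each a gene or list mean in 1 of both short-chain groups, 19 held 1 mouse whose gap to the nearest other mouse took up more of the whole range than Dixon's 95% limit allows. Chance alone marks about 1 in 20 such groups. Germ-free mouse 3 was highest in its group for Psmb8 (gap over range 0.971), Cd3g (0.945) and Ccl5 (0.863). Conventional mouse 3 was lowest for Psmb10 (0.917), Duoxa2 (0.871) and Fut2 (0.833) and highest for Acadm (0.936) and Jun (0.928). Conventional mouse 4 was lowest for Fgf15 (0.943) and highest for the mean of amino acid and peptide transporters (0.833). Germ-free mouse 4 was lowest for Cd8a (0.947), Thrsp (0.899) and the mean of brush border hydrolases (0.869). Germ-free mouse 2 was highest for Mttp (0.899) and germ-free mouse 1 lowest for Ifng (0.861). Conventional mouse 1 was highest for Cd4 (0.830) and lowest for Cxcl16 (0.853). Conventional mouse 2 was lowest for C1qb (0.846) and highest for the mean of plasma proteins made in liver (0.835).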

How the results depend on the processing

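The direction of the called genes named in the report was kept wherever they had a value under the alternatives listed in the methods other than the adipocyte covariate, while the filter on dim genes left 22 of the named genes without one. With all mice and without that covariate the number of genes called stayed within 1.5 times of 2832, from 2583 without the trend in the prior to 3432 with array weights (2025 higher, 1407 lower). Cyclic loess gave 1258 higher and 1458 lower genes, 46.3% higher against 58.8%. Leaving out 1 mouse at a time gave 2078 to 2622 called genes, 1218 to 1613 higher and 852 to 1044 lower, and 0 to 2 for the interaction with water, where only the run without conventional mouse 3 passed any gene. With the adipocyte covariate, which separates the groups and costs precision, 326 genes were called, 130 higher and 196 lower. The sign turned for Adipoq (-0.26), Fabp4 (-0.33), Plin1 (-0.24), Car3 (-0.037), Cd36 (-0.087), Nr0b2 (0.34) and Apol6 (-0.64). For the last 3, which are no part of the covariate, the cause was not tested. Uncalled genes near 0 turned under cyclic loess, Fabp6 (-0.020), Vil1 (-0.018), Nr1h4 (-0.034) and Slc5a1 (-0.036), and leaving out single mice moved Nr1h4 between -0.016 and 0.12, below 0 without germ-free mouse 3. Replicate numbers did not pair the mice, since deviations of same-numbered mice correlated at 0.10, -0.01, 0.05 and -0.03, and not every mouse correlated best with its own number. With the number as a replicate block 2846 genes were called, 1664 higher and 1182 lower, and of the named genes Cdx2, Abcc2 and Alpl lost their calls. With all mice Cdx2, Ace and Apol6 also lost theirs without the trend, Guca2a and Alpl under cyclic loess, and Alpl with array weights. Signals near the floor of the arrays, as in Ifng, Il17a and Cyp1a1, limit what could be seen.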
